A study of Bos taurus with 24 samples.

Results

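Cell cycle and DNA replication genes were followed through a RNA-Seq experiment on skin fibroblasts, which build the dermal matrix, grown from Angus (beef) and Holstein (dairy) heifers. The 56 genes were chosen by symbol from a list of genes of known role, and all 56 were found among the 27371 gene symbols in the count tables. They fall into 16 genes of S phase, 25 of mitosis, 7 of G1, 4 transcription factors of the cycle and 4 inhibitors of cyclin-dependent kinases (CDK). Where a symbol stood on more than 1 row, the row with the most reads was taken, which applied to MCM4 only.

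Cultures from 4 animals of each breed were sampled at 0 h and then 2 h and 8 h after addition of bacterial lipopolysaccharide (LPS, 100 ng/ml), part of the outer membrane of Gram-negative species. This gave 24 samples in 6 groups of 4. The groups were Angus 0 h, Angus 2 h, Angus 8 h, Holstein 0 h, Holstein 2 h and Holstein 8 h. The heifers were about 19 months old, each culture was a primary line of 1 animal frozen at the third passage, and all were revived together, grown in medium with 5% serum, plated at 1 density and given LPS after 48 h. Wells without LPS at 2 h and 8 h were not among the samples, so an effect of LPS and one of time in culture cannot be told apart. The question asked of each gene was whether its level differed between the breeds and whether it changed after LPS.

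A dividing cell copies its DNA in S phase and parts the copies in mitosis, with the gaps G1 and G2 between. Cyclins switch on their CDK partners in turn: cyclin D with CDK4 or CDK6 in G1, cyclin E with CDK2 at the entry to S phase, cyclin A later in S phase and cyclin B with CDK1 in mitosis. E2F factors drive the genes of DNA replication at the G1 to S transition, and MYBL2 and FOXM1 drive the genes of G2 and mitosis, so that the RNA of each set is high in its own phase. CDK inhibitors hold cells in G1. Fibroblasts in culture cycle in serum and stop when they are crowded. In a bulk sample of cultured cells, a lower level of such genes from fewer cycling cells and one from less RNA per cycling cell cannot be told apart.

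Total counts ranged from 51014538 to 104406293 per sample. Before TMM scaling, 1 CPM (a count scaled to the total of its sample) stood for 51.0 to 104.4 counts. The CPM values given were also divided by a TMM factor per sample, 0.831 to 1.128, that evens out differences in RNA composition. The 56 genes took 0.141% to 0.593% of all counts. COL1A1, the main collagen gene, had 111.8 to 119 covered bases per count in 20 samples but only 66.2 to 67.1 in the other 4, which were 0 h samples of Angus animal 4 and of Holstein animals 2 and 4 and the 2 h sample of Angus animal 3. These are called the 4 samples with the low COL1A1 ratio. For the cell cycle genes the median was 69.9 to 71.2 covered bases per count in all 24 samples. All 9 fibroblast markers reached 1 CPM, and DCN, a matrix proteoglycan, was at 1470 to 2680 CPM. Over all hours 4 fibroblast markers were higher in Holstein (COL1A2, COL3A1, FN1 and PDGFRB) and 1 lower (PDGFRA), and the 9 summed to 51300 to 69500 CPM in the Angus 0 h group, below the 87000 to 134000 CPM of the Holstein 0 h group. Of the 9 keratinocyte markers, KRT15, CDH1 and DSG3 stayed under 1 CPM in all samples, and KRT5, KRT14 and KRT17 reached 1 CPM in Holstein animal 1 only (KRT5 at 8.32 to 10.2 CPM). The summed keratinocyte markers were at 3.76 to 41.8 CPM in Angus 0 h and 40.8 to 163 CPM in Holstein 0 h, in Holstein mostly DSC3 (39.4 to 141 CPM), which was 1 of the 2 keratinocyte markers that could be tested and was higher in Holstein. Of the 6 leukocyte markers only CD68 reached 1 CPM, and of the endothelial cell markers CDH5 and KDR did not, while PECAM1 (0.0429 to 1.1 CPM), VWF (0.505 to 3.29) and TEK (0.53 to 2.71) did. VWF was higher in Holstein over all hours, by 2.27-fold (FDR = 0.00133), and TEK had a log2 fold change of 0.32 (FDR = 0.457). Of the melanocyte markers TYR, MLANA and DCT stayed under 1 CPM, and PMEL (0.788 to 2.69 CPM) had 0.16 (FDR = 0.57). The part of these marker differences in the results was not tested.

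Genes of DNA replication and mitosis were lower in Holstein than in Angus cultures. With the counts of the 3 hours summed per animal, all 25 mitosis genes and all 16 S phase genes were lower in Holstein, by a median log2 fold change of -1.13 and -0.91. Values after ± are standard errors of the log2 fold change. In contrast, CCND2, a D-type cyclin of G1, and the inhibitors CDKN1A and CDKN2B were higher. The inhibitor CDKN2C was lower, like the mitosis genes. In all, 46 of the 55 genes tested were lower in Holstein and 3 higher (false discovery rate, FDR, under 0.05, edgeR likelihood-ratio test), while 9.57% of all 20456 rows tested were lower and 9.65% higher. A fold of 2 or more was reached by 28 of the lower genes, against 1.56% of all rows. The median log2 fold change was -1.001 over the 55 genes and -0.01 over all rows. The quasi-likelihood F test of edgeR called 41 lower and 3 higher, without CDK4, CDT1, E2F1, MCM7 and RFC4. E2F2 did not reach 1 CPM in 50% of the animals and was not tested in this comparison.

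**Figure D1:**
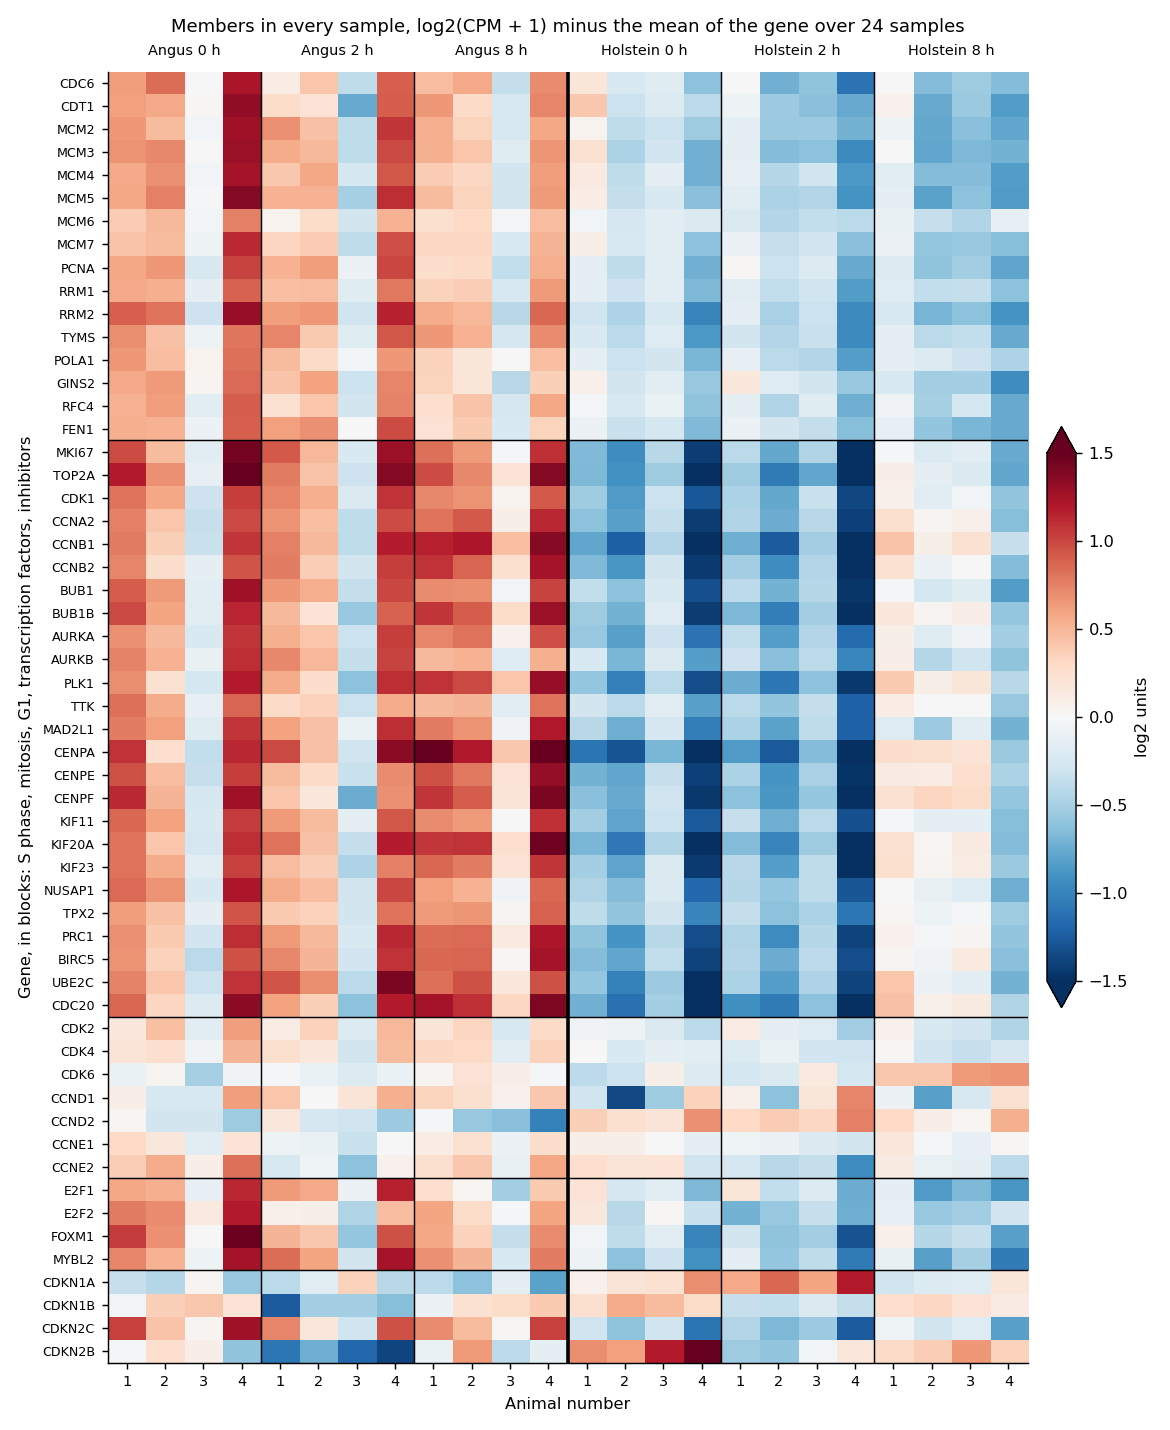
Heat map of the 56 genes (rows, in blocks by role) in the 24 samples (columns, animal numbers within group), as log2(CPM + 1) minus the mean of the gene over all samples, with red above and blue below the mean. The S phase and mitosis blocks were red in Angus animals 1, 2 and 4 and mostly blue in the Holstein animals at 0 h and 2 h, with S phase genes of Holstein animal 1 and most genes of Angus animal 3 near the mean. At 8 h the mitosis block of Holstein animals 1 to 3 was near the mean and that of animal 4 blue.

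The same direction was seen at each hour tested on its own. At 0 h, before LPS, 46 of 56 genes were lower in Holstein and 3 higher, against 6.98% and 6.83% of all rows, and 32 were lower by 2-fold or more (2.09% of all rows). At 2 h, 43 of 55 were lower and 3 higher (9.71% and 10.4% of all rows), with 32 lower by 2-fold or more (2.02%). At 8 h, 46 of 56 were lower and 2 higher (7.78% and 8.72%), but only 9 were lower by 2-fold or more (1.03%). The median log2 fold change of the 25 mitosis genes at 0, 2 and 8 h was -1.34, -1.31 and -0.90, while that of the 16 S phase genes was -0.89, -0.89 and -0.81. By the F test 36 genes were lower and 2 higher at 0 h, 38 and 3 at 2 h, and 35 and 2 at 8 h. At 0 h the calls of CDC6, CDT1, MCM2, MCM3, MCM4, MCM5, MCM7, PCNA, RFC4, E2F1 and CDKN1A were lost with it. The hours come from the same animals and are not independent of each other. Without the 4 samples with the low COL1A1 ratio, 3 of which were at 0 h, the 0 h comparison had 3 Angus and 2 Holstein samples and called 1 gene lower and 1 higher, with a median of -0.68. At 2 h without them 47 genes were lower, and the 8 h comparison holds none of them. The share of all rows called is not given for the F test or for the fits without these samples. A loss of calls in these genes and one across all rows can thus not be told apart here.

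The size of the difference depended on single animals. The CPM values of single animals carry TMM scaling. Angus animal 4 was the highest of the 8 animals in 74 of 75 cases (25 mitosis genes at 3 hours) and in 47 of 48 cases for S phase, and Holstein animal 4 was the lowest in 75 of 75 and 44 of 48. These cases come from the same animals and are not independent of each other, and the share over all rows was not counted. Among the Angus animals, number 3 was closest to the Holstein levels. On the mean over hours, all 4 Holstein animals were below all 4 Angus animals for 25 of the 56 genes (20 mitosis genes, 3 S phase genes, MCM6, TYMS and POLA1, and CDKN2C and E2F2), a pattern found in 12.1% of all rows, and above them for 3 (CCND2, CDKN1A and CDKN2B, 12.3% of all rows). Leaving out 1 animal at a time gave 38 to 48 lower genes over all hours, and the count of genes lower by 2-fold or more was 10 without Angus animal 4, 15 without Holstein animal 4, 37 without Holstein animal 1 and 39 without Angus animal 3. At 8 h the same count of 9 became 1 without Angus animal 4, 3 without Holstein animal 4, 4 without Angus animal 1, 14 without Holstein animal 3, 22 without Holstein animal 1 and 29 without Angus animal 3. At 2 h the count of 32 became 18 without Angus animal 4 and 21 without Holstein animal 4.

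**Figure D2:**
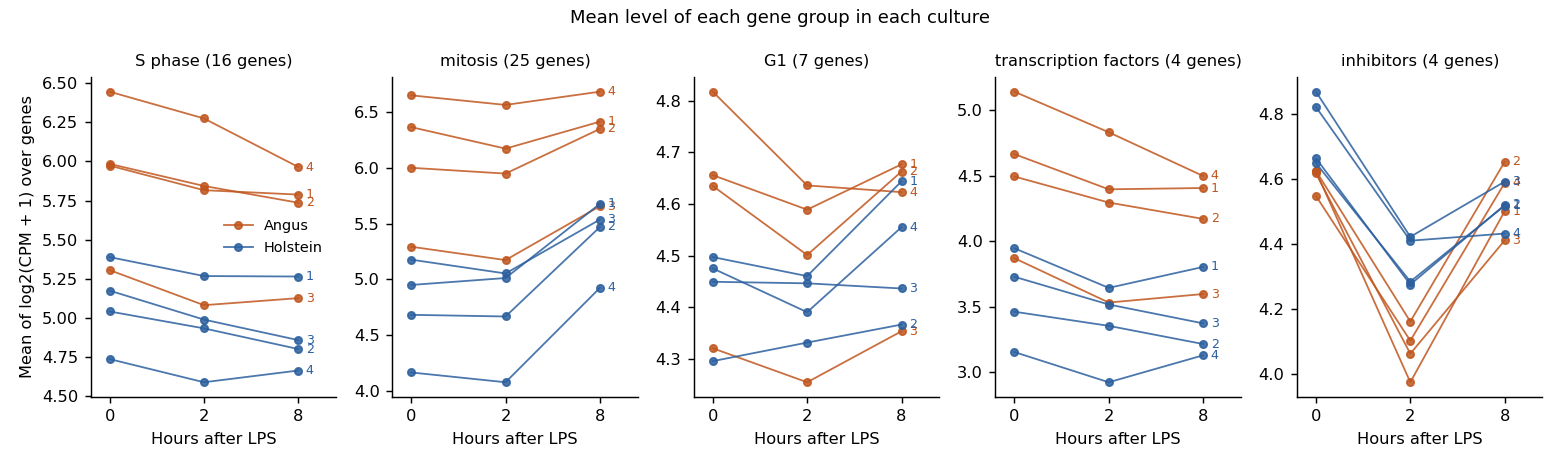
Mean of log2(CPM + 1) over the genes of each role (y axis) at 0, 2 and 8 h after LPS (x axis, evenly spaced), with 1 line per animal, numbered at the right. The S phase and mitosis means of Angus animals 1, 2 and 4 lay above those of all Holstein animals at each hour, those of Angus animal 3 near the Holstein range, and the inhibitor mean dipped at 2 h in all 8 animals.

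Among the mitosis genes, CENPA (chromosome 11, 72781241 to 72787550 on build UMD v3.1), which codes for the histone variant that marks the centromere, had the largest breed difference. It was at 51.1, 28.2, 17.9 and 52.6 CPM in Angus animals 1 to 4 at 0 h and at 10.4, 8.99, 14.3 and 4.80 in Holstein animals 1 to 4, so that no Holstein value reached the lowest Angus value. At 2 h the levels were 47.5, 32.2, 18.8 and 61.6 CPM in Angus and 12.6, 9.24, 14.6 and 6.79 in Holstein, and at 8 h 70.6, 55.2, 31.3 and 78.8 and 28.4, 27.97, 27.2 and 15.6. Over all hours the log2 fold change was -1.52 ± 0.31 (FDR = 0.000128), 2.87-fold lower in Holstein. TOP2A (chromosome 19, 41281047 to 41307328), the topoisomerase that untangles sister chromatids, was at 445, 316, 179 and 595 CPM in Angus animals 1 to 4 at 0 h and at 122, 104, 135 and 66.3 in Holstein animals 1 to 4. At 2 h it was at 335, 264, 157 and 507 CPM in Angus and 134, 92.8, 113 and 53.5 in Holstein, and at 8 h at 384, 323, 226 and 510.5 and 209, 178, 168 and 113. Its log2 fold change over all hours was -1.48 ± 0.32 (FDR = 0.000219), and the breeds did not overlap at any hour. MAD2L1 (chromosome 6, 6013172 to 6020467), a spindle checkpoint protein that holds back anaphase, had the third lowest FDR, with a log2 fold change of -1.21 ± 0.26 (FDR = 0.000245). Its levels were 49.4, 44.1, 25.1 and 61.2 CPM in Angus animals 1 to 4 at 0 h and at 21.1, 16.7, 23.8 and 13.4 in Holstein animals 1 to 4, then 43.8, 39.2, 26.5 and 62.4 against 20.3, 15.9, 21.6 and 11.7 CPM at 2 h and 49.8, 45.96, 27.4 and 66.7 against 24.9, 19.2, 25.3 and 17.02 at 8 h, again without overlap.

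The cyclins and kinases that start mitosis were lower as well. CCNB1 (chromosome 20, 10431452 to 10441126), the main cyclin B, was at 81.6, 60.8, 37.3 and 99.9 CPM in Angus animals 1 to 4 at 0 h and at 26.9, 19.5, 34.4 and 12.5 in Holstein animals 1 to 4 (2.36-fold lower over all hours, FDR = 0.000273). CCNB2, a second cyclin B, was at 32.2, 22.97, 17.2 and 37.4 CPM in Angus animals 1 to 4 at 0 h and at 11.7, 9.94, 15.6 and 6.39 in Holstein animals 1 to 4. For CDK1, their kinase partner, the levels were 74.9, 63.5, 33.6 and 87.4 CPM in Angus animals 1 to 4 at 0 h and at 28.7, 22.9, 33.3 and 16.8 in Holstein animals 1 to 4. CCNA2, the cyclin of late S phase and G2, was at 84.5, 66.3, 38.8 and 99.4 CPM in Angus animals 1 to 4 at 0 h and at 31.97, 27.6, 38.3 and 17.8 in Holstein animals 1 to 4. In these 4 genes the ranges at 0 h did not overlap, yet the lowest Angus value, always that of animal 3, exceeded the highest Holstein value, always that of animal 3, by a small step only. PLK1, a kinase of mitotic entry and spindle assembly, was at 58.95, 42.5, 29.9 and 83.5 CPM in Angus animals 1 to 4 at 0 h and at 23.9, 17.3, 26.96 and 13.8 in Holstein animals 1 to 4. AURKA, the kinase of the spindle poles, was at 33.8, 29.2, 17.4 and 44.3 CPM in Angus animals 1 to 4 at 0 h and at 13.5, 11.2, 16.4 and 9.0 in Holstein animals 1 to 4. Their log2 fold changes over all hours were -1.13 (standard error 0.27) and -1.08 (0.25). The overlap of the PLK1 row with LOC508486 on the other strand covers 631 bases. MKI67, the widely used marker of cycling cells, was at 293, 206, 132 and 404 CPM in Angus animals 1 to 4 at 0 h and at 93.1, 77.1, 111 and 55.2 in Holstein animals 1 to 4, 2.46-fold lower in Holstein over all hours (FDR = 0.000632).

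Genes of the spindle checkpoint and of the exit from mitosis followed. BUB1, a checkpoint kinase at the kinetochore, was at 81.2, 67.0, 37.6 and 104 CPM in Angus animals 1 to 4 at 0 h and at 32.7, 27.4, 36.3 and 16.5 in Holstein animals 1 to 4. BUB1B, its relative in the checkpoint complex, was at 99.4, 75.2, 43.9 and 110.4 CPM in Angus animals 1 to 4 at 0 h and at 33.99, 29.97, 43.4 and 17.9 in Holstein animals 1 to 4. The BUB1 row lies within that of KCNIP3 on the same strand, and their reads may be shared. CDC20, the activator of the ligase that destroys cyclin B, was at 74.8, 50.9, 35.3 and 105 CPM in Angus animals 1 to 4 at 0 h and at 24.4, 18.2, 28.3 and 12.9 in Holstein animals 1 to 4, a 2.43-fold difference over all hours (FDR = 0.000623). UBE2C, the ubiquitin carrier of that ligase, was at 96.4, 76.9, 45.8 and 123 CPM in Angus animals 1 to 4 at 0 h and at 37.9, 27.8, 39.1 and 18.1 in Holstein animals 1 to 4, a 2.31-fold difference (FDR = 0.00137). All 4 ranges were apart at 0 h, that of BUB1B only just. BIRC5, the survivin of the chromosomal passenger complex, was at 64.7, 51.2, 30.1 and 78.6 CPM in Angus animals 1 to 4 at 0 h and at 25.2, 22.9, 30.8 and 14.7 in Holstein animals 1 to 4. Here Holstein animal 3 was just above Angus animal 3, and the ranges overlapped.

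Motors and microtubule proteins of the spindle gave the same picture. KIF11, the motor that pushes the spindle poles apart, was at 135, 113, 63.4 and 155 CPM in Angus animals 1 to 4 at 0 h and at 51.4, 42.6, 59.1 and 30.5 in Holstein animals 1 to 4. KIF20A, a kinesin of the cleavage furrow, was at 137, 104, 65.2 and 169 CPM in Angus animals 1 to 4 at 0 h and at 48.02, 36.3, 56.4 and 24.9 in Holstein animals 1 to 4, and KIF23, a kinesin of the central spindle, at 96.4, 81.05, 48.3 and 112 CPM in Angus animals 1 to 4 at 0 h and at 37.9, 31.1, 46.7 and 19.5 in Holstein animals 1 to 4. PRC1, which bundles the midzone microtubules, was at 149, 122, 75.4 and 200.2 CPM in Angus animals 1 to 4 at 0 h and at 60.8, 49.5, 69.3 and 36.2 in Holstein animals 1 to 4. The ranges of these 4 genes did not overlap at 0 h, and their log2 fold changes over all hours were -1.10, -1.28, -1.001 and -1.14 with standard errors of 0.25 to 0.29. CENPE, a kinetochore motor, was at 96.2, 68.4, 38.4 and 102 CPM in Angus animals 1 to 4 at 0 h and at 29.7, 28.3, 38.7 and 17.98 in Holstein animals 1 to 4, and Angus animal 3 fell within the Holstein range. CENPF, another kinetochore protein, was at 148, 96.8, 56.01 and 165 CPM in Angus animals 1 to 4 at 0 h and at 43.4, 39.6, 54.8 and 24.1 in Holstein animals 1 to 4, with the ranges just apart. NUSAP1, a microtubule binder, was at 60.6, 53.5, 28.1 and 78.2 CPM in Angus animals 1 to 4 at 0 h and at 23.9, 20.7, 28.4 and 14.2 in Holstein animals 1 to 4, with Angus animal 3 in the Holstein range. AURKB, TTK and TPX2, the mitosis genes with changes under 2-fold, had log2 fold changes of -0.98, -0.94 and -0.90. AURKB is the kinase of the passenger complex, TTK a checkpoint kinase and TPX2 an activator of AURKA. TTK was at 1.43 to 9.33 CPM, and its row is covered by LOC100847721 and partly by BCKDHB on the other strand.

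In S phase, the 3 genes of lowest FDR were POLA1, FEN1 and TYMS. POLA1 (chromosome X, 125373672 to 125668430), the catalytic subunit of the polymerase that starts new strands, was at 84.4, 74.1, 55.8 and 95.9 CPM in Angus animals 1 to 4 at 0 h and at 48.6, 42.7, 44.04 and 33.02 in Holstein animals 1 to 4. Its levels at 8 h were 68.5, 60.9, 53.4 and 73.8 CPM in Angus and 48.4, 46.6, 43.2 and 38.6 in Holstein, and the log2 fold change over all hours was -0.75 ± 0.17 (FDR = 0.000321). FEN1, the nuclease that trims Okazaki fragments, was at 22.3, 22.1, 14.2 and 28.9 CPM in Angus animals 1 to 4 at 0 h and at 14.1, 11.8, 12.4 and 9.15 in Holstein animals 1 to 4, and its log2 fold change was -0.90 ± 0.22 (FDR = 0.00102). TYMS, which makes the thymidine nucleotide, was at 77.2, 64.8, 45.02 and 83.1 CPM in Angus animals 1 to 4 at 0 h and at 40.2, 35.7, 41.2 and 25.6 in Holstein animals 1 to 4, with a log2 fold change of -0.93 ± 0.23 (FDR = 0.00136). None of these ranges overlapped at 0 h, though that of FEN1 was only just apart, while at 8 h FEN1 and TYMS did. The POLA1 row contains that of LOC100296181 on the other strand.

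A fold of 2 or more was reached by RRM2, MCM3 and MCM5. RRM2 (chromosome 11, 87466580 to 87473868), the subunit of ribonucleotide reductase that rises in S phase, was at 357, 337, 154 and 475 CPM in Angus animals 1 to 4 at 0 h and at 156, 138, 161 and 95.3 in Holstein animals 1 to 4. Angus animal 3 was thus below Holstein animals 1 and 3. MCM3 was at 92.9, 95.9, 57.5 and 142 CPM in Angus animals 1 to 4 at 0 h and at 67.6, 41.1, 47.03 and 34.6 in Holstein animals 1 to 4, and MCM5 at 85.2, 96.5, 55.2 and 149 CPM in Angus animals 1 to 4 at 0 h and at 61.4, 43.8, 47.9 and 36.4 in Holstein animals 1 to 4. Both belong to the MCM2 to MCM7 helicase that unwinds DNA at the fork, and in both Angus animal 3 lay in the Holstein range. Their log2 fold changes over all hours were -1.14 ± 0.29 (FDR = 0.00215) for RRM2, -1.02 ± 0.27 (FDR = 0.00279) for MCM3 and -1.02 ± 0.28 (FDR = 0.00391) for MCM5. The other S phase genes were lower by 1.47-fold (MCM6) to 1.99-fold (CDC6, a loader of the helicase). They were CDC6 and CDT1, which license the origins, MCM2, MCM4, MCM6 and MCM7, PCNA, the sliding clamp, RFC4 of the clamp loader, GINS2 of the active helicase, and RRM1. MCM4 stood on chromosome 27 (41044072 to 41049402) and, with fewer reads, on chromosome 14 (21164846 to 21192689), and at 0 h the log2 fold change was -0.94 on the first row and -0.91 on the second.

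**Figure D3:**
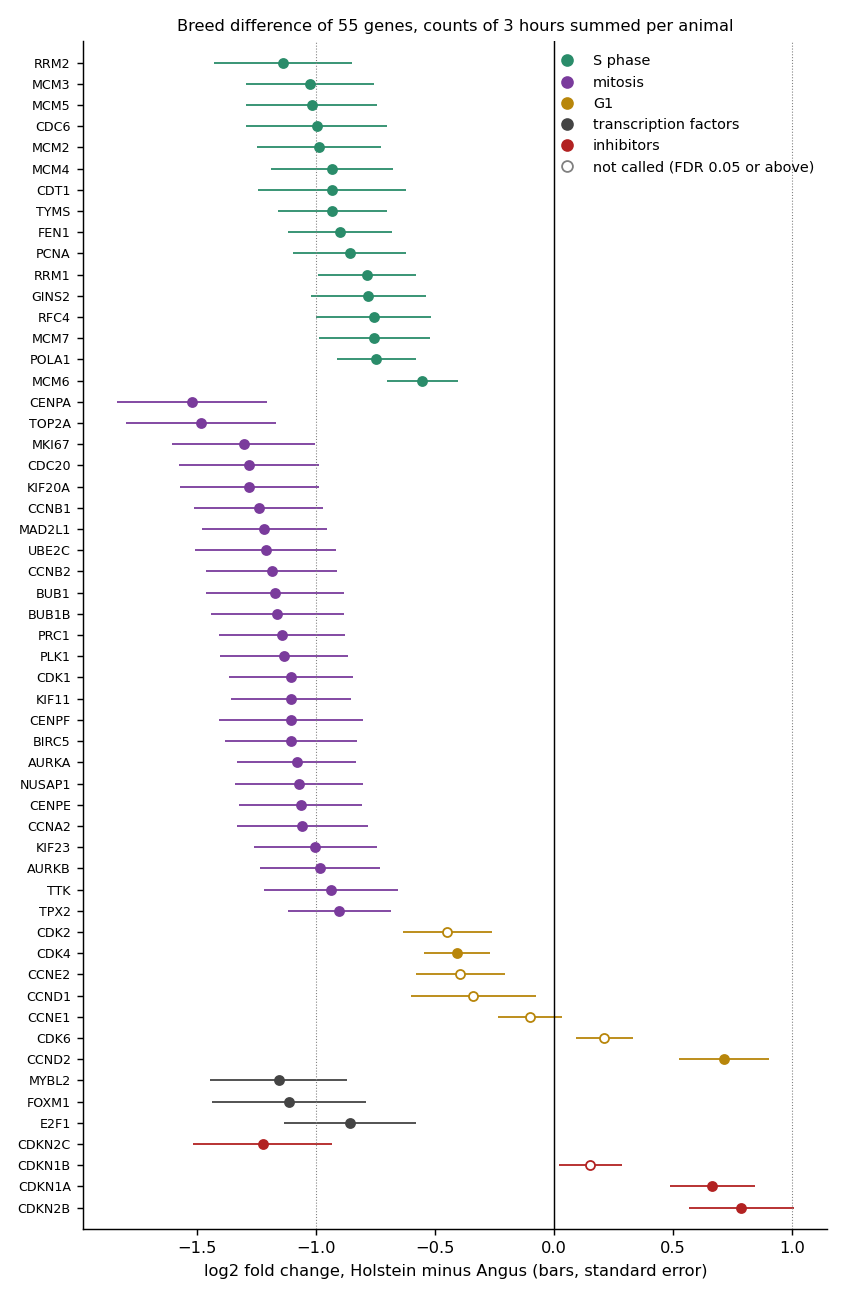
Log2 fold change of Holstein against Angus (x axis) for the 55 genes tested with counts of the 3 hours summed per animal (4 animals per breed), with standard errors as bars and open points for genes that were not called. The S phase and mitosis points all lay left of 0, from -0.55 (MCM6) to -1.52 (CENPA), the G1 genes lay between -0.45 and 0.72, and CDKN1A and CDKN2B lay right of 0.

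The transcription factors MYBL2, FOXM1 and E2F1 were lower in Holstein. MYBL2 (chromosome 13, 72939569 to 72966159), which joins the complex that drives mitosis genes, was at 132, 114, 74.9 and 188 CPM in Angus animals 1 to 4 at 0 h and at 74.6, 50.9, 63.1 and 41.4 in Holstein animals 1 to 4, and its log2 fold change over all hours was -1.16 ± 0.29 (FDR = 0.00161). FOXM1 (chromosome 5, 107386227 to 107397769), the factor of G2 and mitosis, was at 26.7, 20.7, 12.5 and 36.4 CPM in Angus animals 1 to 4 at 0 h and at 12.1, 9.31, 11.04 and 5.78 in Holstein animals 1 to 4, with a log2 fold change of -1.11 ± 0.32 (FDR = 0.00762). For both, the ranges were apart at 0 h, but at 2 h Angus animal 3 was within the Holstein range. At 0 h MYBL2 was only just apart. E2F1, an activator of S phase genes, was at 31.2, 30.1, 18.7 and 46.3 CPM in Angus animals 1 to 4 at 0 h and at 23.97, 17.03, 18.3 and 12.5 in Holstein animals 1 to 4, and overlapped (log2 fold change -0.85 ± 0.28, FDR = 0.0172). E2F2, a relative of E2F1, was at 2.49, 2.33, 1.26 and 3.65 CPM in Angus animals 1 to 4 at 0 h and at 1.28, 0.524, 1.07 and 0.613 in Holstein animals 1 to 4, and was called lower in Holstein at 0 h (log2 fold change -1.46 ± 0.39, FDR = 0.00372) and at 8 h (-1.48 ± 0.35, FDR = 0.00093).

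G1 genes differed less. CCND2 (chromosome 5, 106253891 to 106276819), a D-type cyclin, was at 15.99, 12.8, 12.8 and 10.5 CPM in Angus animals 1 to 4 at 0 h and at 20.4, 18.8, 18.1 and 25.9 in Holstein animals 1 to 4, so that all Holstein values were higher. The levels were 17.8, 13.0, 12.6 and 10.4 CPM in Angus against 19.5, 20.7, 19.8 and 27.2 in Holstein at 2 h and 15.4, 10.3, 9.83 and 7.23 against 19.5, 16.9, 16.1 and 23.1 at 8 h, with no overlap at any hour. Its log2 fold change over all hours was 0.72 ± 0.19 (FDR = 0.00269), 1.64-fold higher in Holstein. CDK4, a partner of the D-type cyclins, was at 58.3, 60.4, 48.97 and 72.5 CPM in Angus animals 1 to 4 at 0 h and at 50.9, 43.1, 46.2 and 44.9 in Holstein animals 1 to 4, and was lower in Holstein by a log2 fold change of -0.41 ± 0.14 (FDR = 0.0235), with overlap at all hours. CDK2, the kinase of cyclin E, had a log2 fold change of -0.45 ± 0.19 (FDR = 0.0742), and that of CCNE2, a cyclin E, was -0.39 ± 0.19 (FDR = 0.128). CCND1 had -0.34 ± 0.26 (FDR = 0.384), with a wide spread among Holstein cultures (51.01, 24.1, 43.1 and 80.1 CPM at 0 h). CCNE1 and CDK6 had -0.10 (FDR = 0.645) and 0.21 (FDR = 0.206). These 5 did not pass the test.

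The 4 CDK inhibitors went in different directions. CDKN1A (chromosome 23, 10560499 to 10568782), an inhibitor of CDK2, was at 74.95, 70.96, 98.4 and 64.04 CPM in Angus animals 1 to 4 at 0 h and at 100.3, 109.8, 112 and 156 in Holstein animals 1 to 4. At 2 h the levels were 71.9, 84.6, 122 and 71.2 CPM in Angus and 143, 174, 145 and 219.7 in Holstein, and at 8 h 72.4, 62.1, 86.8 and 54.3 and 77.8, 82.6, 83.7 and 109. Holstein animal 4, the lowest animal in the mitosis genes, was the highest in CDKN1A at each hour. The breeds were apart at 0 h and 2 h and overlapped at 8 h, and over all hours the log2 fold change was 0.67 ± 0.18 (FDR = 0.00327). CDKN2B (chromosome 8, 22114512 to 22119419), an inhibitor of CDK4 and CDK6, was at 12.2, 15.03, 13.4 and 7.82 CPM in Angus animals 1 to 4 at 0 h and at 20.8, 19.6, 29.6 and 37.3 in Holstein animals 1 to 4, again with no overlap. At 2 h it was at 5.36, 7.09, 4.93 and 4.16 CPM in Angus and 8.28, 7.92, 12.1 and 14.1 in Holstein, and at 8 h at 11.6, 19.9, 9.25 and 11.2 and 15.4, 16.3, 20.1 and 16.1, where the breeds overlapped. Its log2 fold change was 0.79 ± 0.22 (FDR = 0.00468) over all hours and 1.16 ± 0.26 (FDR = 0.000481) at 0 h, the only member higher in Holstein by 2-fold or more at that hour.

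CDKN2C (chromosome 3, 95924171 to 95928574), a further inhibitor of CDK4 and CDK6, was at 22.3, 14.4, 10.8 and 26.7 CPM in Angus animals 1 to 4 at 0 h and at 8.33, 6.57, 8.31 and 4.38 in Holstein animals 1 to 4, then at 18.1, 11.9, 8.34 and 21.2 against 7.43, 6.16, 6.88 and 3.83 CPM at 2 h and at 17.7, 14.9, 10.6 and 22.3 against 9.98, 8.44, 9.03 and 5.54 at 8 h. All Holstein values were below all Angus values at each hour, and the log2 fold change was -1.22 ± 0.29 (FDR = 0.000965). CDKN1B, an inhibitor of cyclin E and CDK2 that is high in resting cells, was at 14.9, 19.9, 20.5 and 17.8 CPM in Angus animals 1 to 4 at 0 h and at 18.2, 22.9, 21.6 and 18.8 in Holstein animals 1 to 4, with a log2 fold change of 0.15 ± 0.13 (FDR = 0.433), and did not pass the test. At 2 h, however, all Holstein values of CDKN1B (11.8, 11.6, 13.04 and 11.7 CPM) were above all Angus values (5.87, 10.4, 10.5 and 9.49), but the log2 fold change at that hour, 0.41 ± 0.20 (FDR = 0.133), did not pass either.

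The change after LPS was tested next, with both breeds combined and 8 samples per hour. The 2 h and 8 h comparisons share the 0 h samples and are not independent of each other. Each animal gave a sample at each hour. Results come from both kinds of fit, without and with the animal as a term (the replicate block). With the breeds combined, the fit without the block held no term for breed, so its spread included the difference between the breeds.

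At 2 h, 3 genes fell without the replicate block, CDKN2B, CDKN1B and CCNE2, and none rose, while 22% of all rows tested changed in either direction. CDKN2B went from 12.2, 15.03, 13.4 and 7.82 CPM at 0 h to 5.36, 7.09, 4.93 and 4.16 at 2 h in Angus animals 1 to 4, and from 20.8, 19.6, 29.6 and 37.3 to 8.28, 7.92, 12.1 and 14.1 in Holstein. It fell in all 8 animals, by a log2 fold change of -1.28 ± 0.31 (FDR = 0.000578), and at 8 h it stood at 11.6, 19.9, 9.25 and 11.2 and 15.4, 16.3, 20.1 and 16.1 CPM, below the 0 h value in all 4 Holstein animals and in 2 of the 4 Angus animals. CDKN1B (chromosome 5, 97577139 to 97582322) went from 14.9, 19.9, 20.5 and 17.8 to 5.87, 10.4, 10.5 and 9.49 CPM in Angus and from 18.2, 22.9, 21.6 and 18.8 to 11.8, 11.6, 13.04 and 11.7 in Holstein. No 2 h value reached the lowest 0 h value, and the log2 fold change was -0.87 ± 0.14 (FDR = 1.88e-08). At 8 h CDKN1B was at 14.3, 18.1, 18.7 and 20.4 CPM in Angus and 18.4, 19.2, 17.9 and 16.7 in Holstein, near the 0 h values (log2 fold change -0.10 ± 0.10, FDR = 0.591).

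CCNE2 (chromosome 14, 71807750 to 71818065), a cyclin E, fell too. Its level went from 27.3, 31.04, 22.5 and 37.8 to 17.4, 19.9, 13.2 and 21.9 CPM in Angus and from 25.0, 24.1, 24.3 and 16.8 to 17.3, 15.3, 16.1 and 10.5 in Holstein, lower in each of the 8 animals, with a log2 fold change of -0.66 ± 0.16 (FDR = 0.00039). At 8 h it stood at 24.7, 27.9, 19.1 and 31.7 and 22.9, 19.4, 18.8 and 15.6 CPM. Its row lies within that of INTS8 on the same strand, so that the 2 can share reads. E2F2 (chromosome 2, 129925794 to 129942090) had -1.13 (FDR = 0.0632) without the block and -1.16 (FDR = 1.59e-12) with it, and went from 2.49, 2.33, 1.26 and 3.65 to 1.14, 1.17, 0.492 and 1.81 CPM in Angus and from 1.28, 0.524, 1.07 and 0.613 to 0.249, 0.380, 0.602 and 0.229 in Holstein, lower in all 8 animals. Among the S phase and mitosis genes, the lowest FDR without the block was that of CDT1 (-0.45, FDR = 0.344) and CENPF (-0.45, FDR = 0.513), neither of which passed.

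With the replicate block, 26 of 56 genes fell and 5 rose at 2 h, against 25.3% of all rows lower and 22.2% higher. The falls held 10 of 16 S phase genes, 9 of 25 mitosis genes, 2 of 7 G1 genes, 2 of 4 transcription factors and 3 of 4 inhibitors. Those of S phase were led by the origin licensing genes CDT1, -0.46 (standard error 0.07), and CDC6, -0.45 (0.06). CDT1 went from 15.7, 15.2, 10.04 and 26.4 to 12.2, 11.7, 5.46 and 19.4 CPM in Angus and from 13.4, 7.74, 8.48 and 7.25 to 9.37, 6.51, 6.07 and 5.46 in Holstein. The falls in mitosis genes were led by CENPF, -0.36 (0.08), and BUB1B, -0.35 (0.05). The rises were those of CCND1, 0.40 (0.09), CDKN1A, 0.34 (0.07), UBE2C, 0.17, CENPA, 0.14, and BIRC5, 0.10. The median log2 fold change of the 56 genes was -0.10, and that of all rows was -0.01.

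At 8 h, mitosis genes were higher and S phase genes lower than at 0 h within the animals. Without the replicate block, 1 of 56 genes was called, CDK6, against 12.8% of all rows. With it, 22 genes rose and 20 fell, while 19.4% of all rows rose and 21.2% fell. The rises held 20 of the 25 mitosis genes and 2 of the 7 G1 genes (CDK6 and CCND1). The falls held 13 of the 16 S phase genes, all 4 transcription factors, 2 G1 genes (CCND2 and CCNE2) and CDKN1A. No mitosis gene fell and no S phase gene rose. The median log2 fold change with the block was 0.46 for mitosis, -0.25 for S phase and -0.01 for all rows. In 13 of the 25 mitosis genes the 8 h value was above the 0 h value in all 8 animals, as in 12.7% of all rows, and in 9 of the 16 S phase genes it was below in all 8, as in 15.1% of all rows. Without the 4 samples with the low COL1A1 ratio, the block left 5 complete pairs and called 19 genes higher and 17 lower. The share of all rows is not given for that fit.

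The largest rise with the block was that of CENPA, 1.06 ± 0.14 (FDR = 3.24e-13), which went from 51.1, 28.2, 17.9 and 52.6 CPM at 0 h to 70.6, 55.2, 31.3 and 78.8 at 8 h in Angus and from 10.4, 8.99, 14.3 and 4.80 to 28.4, 27.97, 27.2 and 15.6 in Holstein. CCNB1 followed with 0.90 ± 0.13 (FDR = 2.34e-10), and without the block it had the lowest FDR of the mitosis genes, 0.213. It went from 81.6, 60.8, 37.3 and 99.9 to 107, 110.3, 64.8 and 123 CPM in Angus and from 26.9, 19.5, 34.4 and 12.5 to 63.7, 50.1, 55.5 and 36.9 in Holstein, higher in each animal. CDC20, PLK1 and KIF20A rose by 0.76, 0.72 and 0.68 with the block. PLK1 stood at 77.5, 72.96, 48.5 and 90.95 CPM in Angus and 47.8, 38.5, 41.1 and 26.9 in Holstein at 8 h, above its 0 h level in every animal. MKI67, BUB1, AURKB, TTK and NUSAP1 were the mitosis genes that did not pass.

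CDK6 (chromosome 4, 9791798 to 10039688), a kinase of the D-type cyclins, was the member called at 8 h without the block. It went from 13.8, 15.2, 10.2 and 14.2 CPM at 0 h to 15.2, 17.3, 15.9 and 14.5 at 8 h in Angus and from 10.99, 11.6, 15.8 and 12.6 to 19.8, 19.9, 23.4 and 24.2 in Holstein, higher in all 8 animals, with a log2 fold change of 0.53 ± 0.13 (FDR = 0.0011). All Holstein values at 8 h were above all Angus values at 8 h, and CDK6 was called between the breeds at that hour only (log2 fold change 0.48 ± 0.12, FDR = 0.00213). In S phase, GINS2 had the lowest FDR without the block (0.321) and the largest fall with it, -0.40 ± 0.06 (FDR = 7.09e-11), from 16.1, 16.9, 10.8 and 19.9 to 13.5, 12.1, 7.65 and 13.7 CPM in Angus and from 11.2, 8.55, 9.30 and 6.77 to 8.86, 7.05, 7.10 and 5.03 in Holstein. E2F1 and CDKN1A, of lowest FDR in their roles without the block (0.225 and 0.266), fell by 0.47 and 0.29 on the log2 scale with it. CDKN1A was thus higher than at 0 h at 2 h and lower at 8 h with the block.

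**Figure D4:**
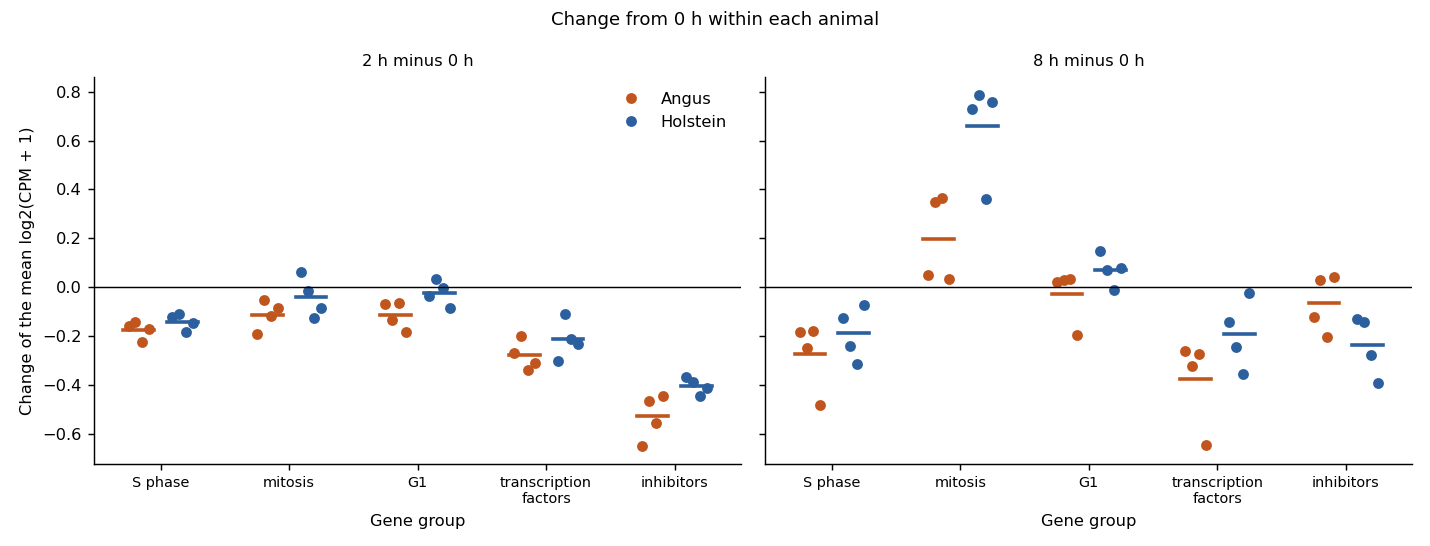
Change from 0 h within each animal of the mean log2(CPM + 1) over the genes of each role (y axis), at 2 h (left) and 8 h (right), with points for the 4 animals of each breed in order of their number and lines for the breed means. At 8 h all 8 mitosis changes were above 0, from 0.03 to 0.79, and all 8 S phase changes were below 0, from -0.07 to -0.48.

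Per animal, the mean log2(CPM + 1) of the 25 mitosis genes changed from 0 h to 8 h by 0.05, 0.35, 0.36 and 0.03 in Angus animals 1 to 4 and by 0.73, 0.79, 0.36 and 0.76 in Holstein animals 1 to 4. Holstein animal 3 lay among the Angus animals, and the other Holstein animals above all of them. The mean of the 16 S phase genes changed by -0.18, -0.25, -0.18 and -0.48 in Angus and by -0.12, -0.24, -0.32 and -0.07 in Holstein, with the ranges overlapping. The mitosis mean less the S phase mean, a comparison within each sample, changed by 0.23, 0.60, 0.54 and 0.51 in Angus and by 0.85, 1.03, 0.68 and 0.83 in Holstein, so that the balance moved towards mitosis genes in all 8 animals.

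Within each breed, the rise of mitosis genes at 8 h was called in Holstein without the block. There 14 of 55 genes rose and 1, CDKN2B, fell (14.7% of all rows changed in either direction), and 13 of the 14 were mitosis genes, led by CENPA, 1.37 ± 0.31 (FDR = 0.000237), CCNB1, 1.15 ± 0.28 (FDR = 0.00104), and CDC20, 1.05 ± 0.25 (FDR = 0.000748). The number that rose was 4 without Holstein animal 2, 5 without Holstein animal 1 and 4 without the 2 Holstein samples at 0 h with the low COL1A1 ratio, and the quasi-likelihood F test called 6 genes. With the block, 26 genes rose and 14 fell in Holstein (17.9% and 17.3% of all rows), 24 of the rises in mitosis. In Angus at 8 h, 0 of 56 genes were called without the block by edgeR or DESeq2, while edgeR called 3.9% of all rows. In either tool 0 genes had an unadjusted p under 0.05. Without Angus animal 3, 14 genes had such a p in edgeR, with 0 called. With the block, 11 genes rose and 15 fell in Angus (9.56% and 11.2% of all rows). All 11 rises were mitosis genes, and CENPA, 0.72 ± 0.10 (FDR = 6.65e-11), again led them. At 2 h in Angus 3 genes fell without the block, the same 3 as with the breeds combined (13.8% of all rows in either direction), but CCNE2 was lost without Angus animal 1, without Angus animal 2 and without the samples with the low COL1A1 ratio (log2 fold change -0.45, FDR = 0.0553). With the block 22 genes fell and 0 rose in Angus at 2 h (18.8% and 16.9%). At 2 h in Holstein these 3 genes fell as well and CDKN1A rose, 0.50 ± 0.19 (FDR = 0.0428) (17.2% in either direction), and with the block 14 fell and 3 rose (18.5% and 17.2%). Without the block the rise of CDKN1A was lost when Holstein animal 1, 2 or 3 was left out, by the F test and with no filter. Only 2 of the 3 falls were called without Holstein animal 2, and 2 without Holstein animal 3.

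An interaction term of breed and hour asked whether the change differed between the breeds. Without the replicate block no member was called at 2 h or 8 h, where 0.437% and 0.137% of all rows were. DESeq2 called 0 as well, and in each tool 0 members at 2 h and 2 at 8 h had an unadjusted p under 0.05. With the block, 17 of 56 genes changed more positively in Holstein at 8 h and 1 more negatively (2.02% and 0.574% of all rows). The 17 held 14 mitosis genes, among them CENPA, 0.70 ± 0.17 (FDR = 0.00603), TOP2A, 0.66 ± 0.15 (FDR = 0.00159), and MKI67, 0.61 ± 0.14 (FDR = 0.00276), and also CDK6, 0.52 ± 0.14 (FDR = 0.02), FOXM1 and POLA1. CDKN1A was the 1 that changed more negatively, -0.28 ± 0.08 (FDR = 0.0267). These calls were not kept by the quasi-likelihood F test with the same block or without the 4 samples with the low COL1A1 ratio, each of which called 0 genes in edgeR, with 29 and 10 genes at an unadjusted p under 0.05. At 2 h, 1 gene was called with the block, CDKN1A, 0.35 ± 0.11 (FDR = 0.0327), against 2.75% of all rows more positive and 1.53% more negative in Holstein. The F test with the block and the block without the 4 samples called 0 members at 2 h in edgeR, with 6 and 5 at an unadjusted p under 0.05.

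**Figure D5:**
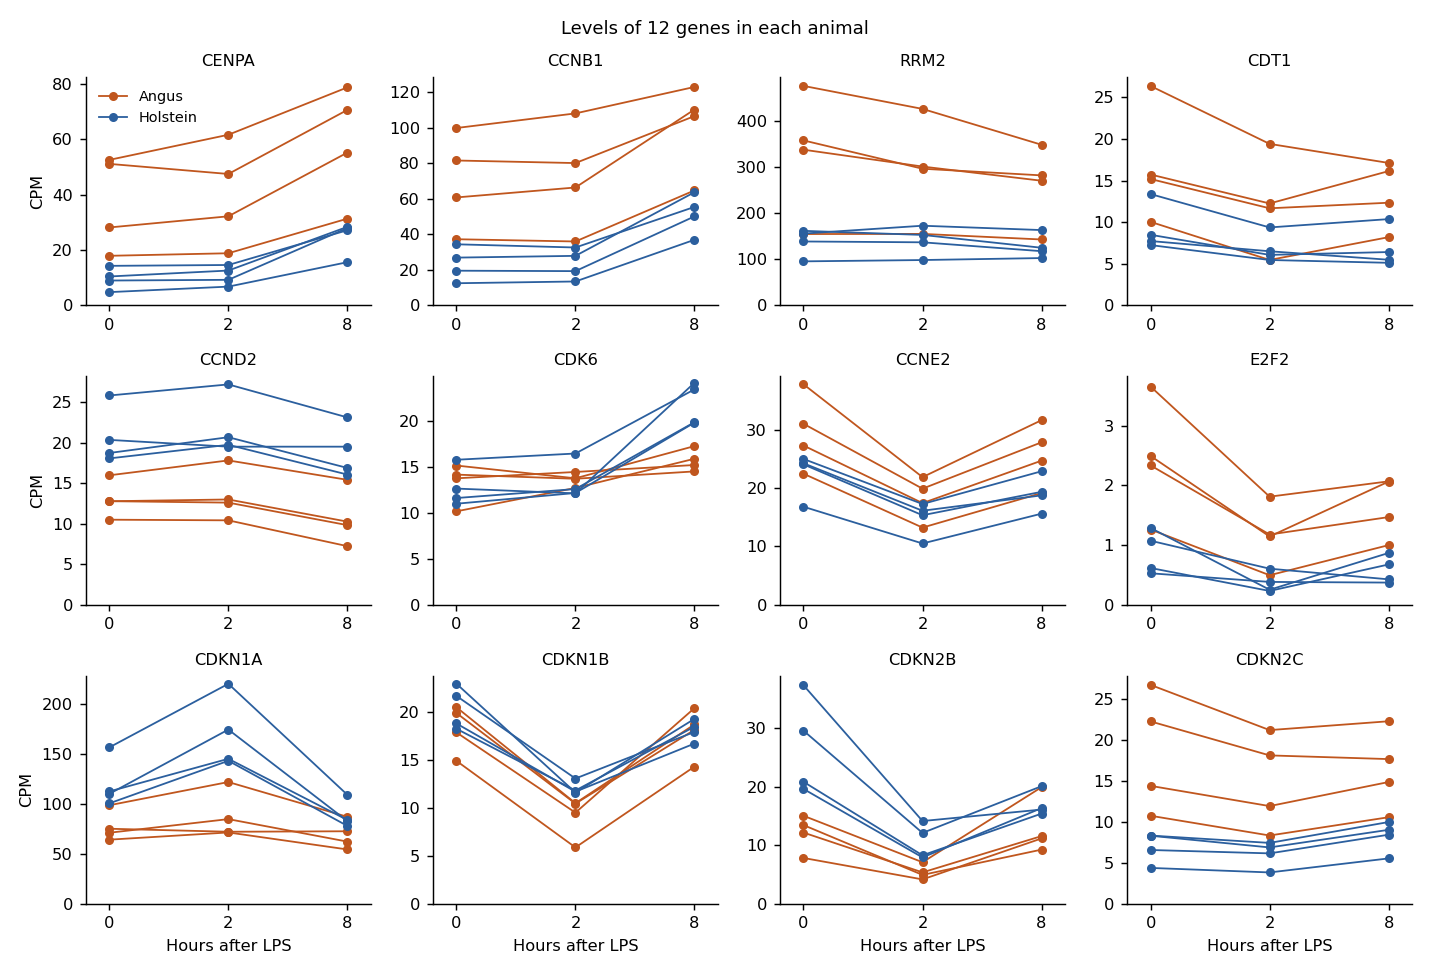
Levels of 12 genes in CPM (y axis, from 0) at 0, 2 and 8 h after LPS (x axis, evenly spaced), with 1 line per animal. CENPA and CCNB1 were highest at 8 h in every animal, CDKN1B, CDKN2B, CCNE2 and E2F2 were lower at 2 h than at 0 h in every animal, and CDKN1A at 2 h was highest in the Holstein animals, at 143 to 219.7 CPM.

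Other genes of the cycle were taken from a second list of 99 symbols, of which 97 were found (DTL and LIN9 were not). Between the breeds over all hours, 69 of the 95 that could be tested were lower in Holstein (9.57% of all rows) and 3 higher (9.65%, which the 3 do not reach as a share of the 95), by role 38 of 39 mitosis genes, 23 of 29 S phase genes, 4 of 7 transcription factors, 2 of 6 G1 genes and 2 of 14 inhibitors or arrest genes on the lower side. ASPM, a spindle pole protein, -1.46 ± 0.30 (FDR = 8.27e-05), E2F8, a repressor of the E2F family, -1.35 ± 0.32 (FDR = 0.000981), and CDCA3, -1.31 ± 0.32 (FDR = 0.00114), had the largest differences on that side. The 3 that were higher in Holstein were CCNG2, 0.78 ± 0.24 (FDR = 0.00986), GADD45B, 0.75 ± 0.15 (FDR = 3.1e-05), and MDM2, 0.46 ± 0.12 (FDR = 0.00265), all from the list of inhibitors and arrest genes. CCNG2 is a cyclin found in arrested cells, GADD45B a stress gene and MDM2 a ubiquitin ligase. PTTG1 (securin) was the 1 mitosis gene of the list that did not pass, with 0.11 ± 0.15 (FDR = 0.654). RB1, which holds back E2F factors, had 0.01 (FDR = 0.974). CDKN2A, the neighbour of CDKN2B and a marker of senescent cells, had 0.83 ± 0.26 (FDR = 0.0166) at 0 h and 0.58 ± 0.25 (FDR = 0.082) over all hours.

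After LPS, 4 genes of this list rose and 7 fell at 2 h without the replicate block, out of 95 tested. This is a smaller share than the 22% of all rows that changed, and nothing is read from the number. The rises of BTG2, an antiproliferative gene, 1.60 ± 0.42 (FDR = 0.00162), MYC, 0.96 ± 0.13 (FDR = 2.85e-11), and GADD45B, 0.78 ± 0.24 (FDR = 0.00799), were the largest, and the falls of GADD45A, -1.04 ± 0.12 (FDR = 6.79e-17), PRIM1 (primase), -0.81 ± 0.20 (FDR = 0.000441), and E2F7, -0.77 ± 0.21 (FDR = 0.00236). MYC, a factor that promotes entry into the cycle, thus rose at the hour at which CDKN1B and CDKN2B fell. At 8 h, MYC was the 1 gene that rose, 0.46 ± 0.13 (FDR = 0.00606), and 4 fell, of which GADD45A, -0.65 ± 0.12 (FDR = 1.83e-06), CCNG1, -0.43 ± 0.12 (FDR = 0.00316), and MDM2, -0.40 ± 0.14 (FDR = 0.0431), had the largest changes. These 5 of 95 are again a smaller share than that of all rows, 12.8%. With the block, 24 of 95 rose and 33 fell at 8 h (19.4% and 21.2% of all rows), and 19 of the 24 rises were mitosis genes while 20 of the 33 falls were S phase genes. CDKN3, a phosphatase of CDKs listed with the inhibitors, had the largest rise with the block, 0.65 ± 0.12 (FDR = 2.63e-07), followed by CDC25B, the phosphatase that activates CDK1, 0.59 ± 0.12 (FDR = 1.75e-05).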

How the data were processed

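RNA-Seq was performed on polyadenylated RNA of 24 samples with a library kit that does not mark strand, and lysates of duplicate wells were pooled. Per the labels and methods, the authors used CASAVA 1.7, trimmed and filtered the reads, aligned them with NextGENe 2.3.4 to the bovine build UMD v3.1 and deposited, for each sample, the read count of every gene span or gene-free interval with its mean coverage. The coverage values that the authors deposited served only for the covered bases per count.

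Groups came from the labels. CPM values were counts divided by the total count of the sample and by its TMM factor. For the filter of rows the CPM was not scaled by TMM. Rows with at least 1 CPM in at least 50% of the samples compared were tested with the likelihood-ratio test of edgeR 4.0.16 (R 4.3.3) with TMM scaling and Benjamini-Hochberg adjustment over all rows tested (FDR), and a gene was called at an FDR under 0.05. This is the test of every FDR given. For the comparison over all hours the counts of the 3 hours were summed per animal. The samples of 1 animal at different hours carry the same animal number in the labels, so the replicate block took the pairing from there. Deviations from the group means correlated within an animal by a mean r of 0.366 between 0 h and 2 h and 0.481 between 0 h and 8 h (lowest -0.654 and -0.703). Between different animals of a breed the mean r was -0.1 and -0.221, but the highest were 0.807 and 0.934. The pairing given by the labels was thus not matched by these correlations in every animal. Each culture is 1 animal, so without the block p-values measure the spread between animals of a breed, except after LPS with both breeds combined. Those combined fits held no term for breed, so their spread also held the difference between the breeds. With the block, p-values measure the spread of changes within animals.

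Per role and comparison, the 3 called genes of lowest FDR and every gene called with a fold of 2 or more are given with values, and where none was called, the gene of lowest FDR. Of the pathway list the 3 of largest fold per direction are named. Other genes were named after their values were seen. The members and lists were chosen with earlier results of these data known. Alternatives were the quasi-likelihood F test, RLE scaling, DESeq2 1.42.0, no filter, rows with a symbol only, a fold of at least 2, the replicate block and leaving out samples. Chosen after seeing the data were the block with the F test and the block without 4 samples. The likelihood-ratio fit without the block was run on simulated counts for the breeds over all hours, LPS at 8 h and the interaction at 8 h. Those counts held no animal effect, and the fits with the block, the F test or DESeq2 were not simulated. Tables and figures were made with Python 3.11.15, pandas 2.3.3, numpy 2.4.6 and matplotlib 3.10.9.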

Additional observations from a re-analysis of the deposited data

Results flagged for a closer look

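In 10 of 264 groups of 4 values, 1 sample stood apart from the other 3 by more of the range than the 95% critical value of Dixon's test, and chance gives about 1 in 20 such groups. In Holstein at 8 h, animal 4 stood apart with low CENPA (15.6 CPM) and CENPF (45.0 CPM), and animal 1 with high MCM3 (58.0 CPM). Holstein animal 4 was also low in CCNE2 at 0 h (16.8 CPM) and apart in CCND2 at 2 h (27.2 CPM). Holstein animal 3 was high at 2 h in CDKN1B (13.0 CPM) and CDK6 (16.5 CPM). Angus animal 3 was apart at 8 h in CDK4 (45.4 CPM) and in the mean log2(CPM + 1) of the G1 genes (4.353), and Angus animal 4 at 0 h was apart in the mean of the inhibitors (4.548).

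For 2 of 112 pairs of gene and hour, all 4 animals of 1 breed moved one way and all 4 of the other breed the opposite way. The share of all rows with this pattern was not counted, and nothing is read from the number. TTK changed from 0 h to 8 h by a mean of 0.303 on the scale of log2(CPM + 1) in Holstein and -0.121 in Angus. E2F1 changed from 0 h to 2 h by -0.065 in Holstein and 0.039 in Angus. The interaction of breed and hour called neither gene without the replicate block. With the block it called TTK at 8 h, and not E2F1 at 2 h. The block with the F test and the block without the 4 samples with the low COL1A1 ratio called 0 members at both hours.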

How the results depend on the processing

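The genes called without the replicate block between the breeds, at 2 h or 8 h after LPS, at 2 h in Angus and at 2 h or 8 h in Holstein did not reverse under the alternatives, and of their values 2760 kept their side of the threshold and 279 lost it. Requiring a fold of 2 gave 28 genes between the breeds over all hours, 9 at 8 h, 1 at 2 h after LPS, 0 at 8 h after LPS, and in Holstein 1 at 2 h and 3 at 8 h. Without the 4 samples with the low COL1A1 ratio, 2 genes were called between the breeds at 0 h and 5 in Holstein at 8 h, while the F test called 6 in the latter. Between the breeds the F test called 44 genes over all hours, 38 at 0 h, 41 at 2 h and 37 at 8 h. Counts under these alternatives stand without the share of all rows called in the same fit. Unpaired fits without these 4 samples compare partly different animals at the hours compared, and there the median log2 fold change of the members went from -0.13 to 0.22 in Angus at 2 h, from -0.08 to -0.29 in Holstein at 2 h, from 0.17 to -0.02 in Holstein at 8 h, and for the interaction from 0.06 to -0.59 at 2 h and from 0.25 to -0.10 at 8 h.

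With the replicate block, 31 genes were called at 2 h and 42 at 8 h, 22 and 26 in Angus, 17 and 40 in Holstein, and 1 and 18 for the interaction. The interaction had 0 at both hours with the block and the F test, and 0 at both with the block without the 4 samples. Alternatives chosen after seeing the data gave, for the block with the F test, 33 and 41, 24 and 26 in Angus, and 18 and 41 in Holstein, and for the block without the 4 samples 19 and 36, 19 and 24, and 11 and 31. Leaving out each animal in turn gave 41 to 51 genes over all hours, 43 to 52 at 0 h, 38 to 50 at 2 h and 36 to 51 at 8 h between the breeds, 2 to 4 in Angus at 2 h, 2 to 4 in Holstein at 2 h and 5 to 22 in Holstein at 8 h. With 4 animals per breed, values that rest on 1 animal cannot be told from those of a breed, and E2F2, with the lowest counts, did not reach the CPM limit over all hours.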
